A study of Mus musculus with 16 samples.

Results

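Gvin1 and Gm4070 encode very large interferon-inducible GTPases, and together they account for 7 of the 622 differentially methylated (DM) sites listed for mouse liver, 4 under the name Gvin1 and 3 under the name Gm4070. The members were all rows of the deposited table that carry either name. The sites were selected on these same measured values, since every row of that table had already passed the authors' threshold on its p value. The pair of names was chosen by their rows at the same places, so the logFC and p values below are a description of listed sites and were not tested again.

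The table compares livers of 4 mice labelled wild type with livers of 4 labelled Mettl14 knockout. By the study's methods, wild type animals were Albumin-Cre;Mettl14+/+ and knockout animals carried floxed Mettl14 alleles with Albumin-Cre. The albumin promoter drives Cre recombinase mainly in hepatocytes, and liver cells without recombination keep the gene. All animals received a high-fat diet, and their ages were not given in the sources used here. Each mouse gave 1 INPUT library of mRNA and 1 m6A-IP library, in which fragments carrying N6-methyladenosine (m6A) are enriched with an antibody, 16 libraries in all. Values per mouse and the depth of each library were not analysed here, because the table gives 1 value per site for the whole comparison.

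METTL14 is the partner of METTL3 in the complex that writes m6A on adenosines within a short sequence context. Giant GTPases of the Gvin family are among the proteins whose transcripts are induced by type I and type II interferons, alongside the guanylate-binding proteins and the immunity-related GTPases. Their genes lie in a cluster on mouse chromosome 7, most of the protein is encoded by a single very long exon, and the cluster holds many pseudogenes. Whole liver holds hepatocytes, Kupffer cells and other immune cells, which bulk RNA does not separate. Fewer cells of a type cannot be told apart from less RNA per cell, nor a changed mix of cells from changed methylation within a type.

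In the annotation of this build (mm10, the same assembly as GRCm38), Gvin1 and Gm4070 are separate genes on the minus strand. Gm4070 spans chr7:105895139-105953967 and Gvin1 spans chr7:106156556-106215326 in GENCODE M21. The last exon of each is 8709 nt long and holds the whole coding sequence of 7281 nt, which encodes 2427 residues. The start of one exon lies 261417 nt from the start of the other. All 7 listed sites are single stretches of 50 nt on the minus strand in this coding sequence, and no other annotated gene overlaps any of them.

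The 7 rows reduce to 3 stretches of the exon. The sequences are shown because reads could tell these stretches apart by sequence, but not the loci they lie in. Capitals mark matches to RRACH, the consensus in which m6A is most often found (A or G, then A or G, A, C, and last A, C or T), searched on the transcript strand only, and each sequence runs 5′ to 3′ along the transcript.
Gvin1, chr7:105901361-105901410, minus strand: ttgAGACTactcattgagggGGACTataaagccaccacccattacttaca
Gm4070, chr7:105901359-105901408, minus strand: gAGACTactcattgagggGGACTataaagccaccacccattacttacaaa
Gvin1, chr7:106161530-106161579, minus strand: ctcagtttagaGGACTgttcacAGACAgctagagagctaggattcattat
Gvin1 and Gm4070, chr7:105896667-105896716 and again chr7:106158084-106158133, minus strand: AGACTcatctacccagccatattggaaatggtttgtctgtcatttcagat

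Counted from the 5′ end of the exon, the first stretch begins at nt 2438 under the name Gvin1 and at nt 2440 under the name Gm4070, a shift of 2 nt. The stretch in the middle covers nt 3686 to 3735, and the last covers nt 7132 to 7181. In the protein these are codons 812 to 828 (to 829 for the shifted row), codons 1228 to 1244 and codons 2376 to 2393. A P-loop motif (a G, any 4 residues, then G, K and S or T), which binds the phosphates of the nucleotide in GTPases, was found at residues 1495 to 1502 of both proteins, and 0 of the listed sites overlap it. The last stretch ends 104 nt before the stop codon, whereas the others end 3550 to 4798 nt before it.

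The names did not follow the annotated genes. Of the 4 rows named Gvin1, 2 lie in the exon of Gvin1 and 2 in the exon of Gm4070. Of the 3 rows named Gm4070, 1 lies in the exon of Gvin1. With 2 names and 2 loci there are 4 combinations for each stretch. The annotation the authors used was not given. Each name has a row of the last stretch at both loci, so each was counted at both there. Whether the other stretches were also counted under each name at both loci was not tested. The last stretch was listed 4 of 4 times, the first 2 of 4 times, both at the Gm4070 locus, and the middle stretch 1 of 4 times, at the Gvin1 locus under its own name. The stretch without a row at a locus has the same sequence there as at the locus that is listed, and why a row is absent was not tested.

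All 7 rows had a negative logFC, the coefficient of genotype on the natural log scale. The background is 33.6% of all 622 listed sites with a negative logFC. Neither the table nor the sources used here state which genotype is the reference, and no site lies in Mettl14 itself, so a negative value is given only as a difference between the genotypes. The values ranged from -1.47 to -0.63 with a median of -0.71 over rows, in which the last stretch is counted several times. With each stretch counted once, a setting chosen after the data were seen, the median was -0.85. The median of all 209 negative sites was -0.90, with its quartiles at -1.25 and -0.69.

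The middle stretch had the most negative value. Its deposited logFC was -1.47, with an unadjusted Wald p of 0.000117. If that p is read as a two-sided normal Wald test, the standard error is 0.382 and the 95% interval runs from -2.22 to -0.72. This corresponds to a 4.36-fold difference in adjusted IP count between the genotypes. It was the 36th most negative of the 209 negative sites.

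The first stretch had a logFC of -0.88 under the name Gvin1, with an implied interval from -1.34 to -0.42 and a deposited p of 0.000175. Under the name Gm4070 the same stretch, shifted by 2 nt, had -0.81, with an interval from -1.23 to -0.39 and a p of 0.000157. These are differences of 2.41-fold and 2.25-fold between genotypes.

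The last stretch had the values nearest to 0. At the Gvin1 locus its logFC was -0.71 (-1.10 to -0.31, deposited p of 0.000435) under the name Gvin1 and -0.70 (-1.10 to -0.30, p of 0.000541) under the name Gm4070. At the Gm4070 locus it was -0.64 (-0.98 to -0.30, p of 0.00024) under the name Gvin1 and -0.63 (-0.97 to -0.29, p of 0.000289) under the name Gm4070. The genotypes thus differed 2.03-fold, 2.02-fold, 1.89-fold and 1.88-fold in these rows. The interval of the middle stretch overlapped those of the other stretches, and the difference between stretches was not tested.

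**Figure D1:**
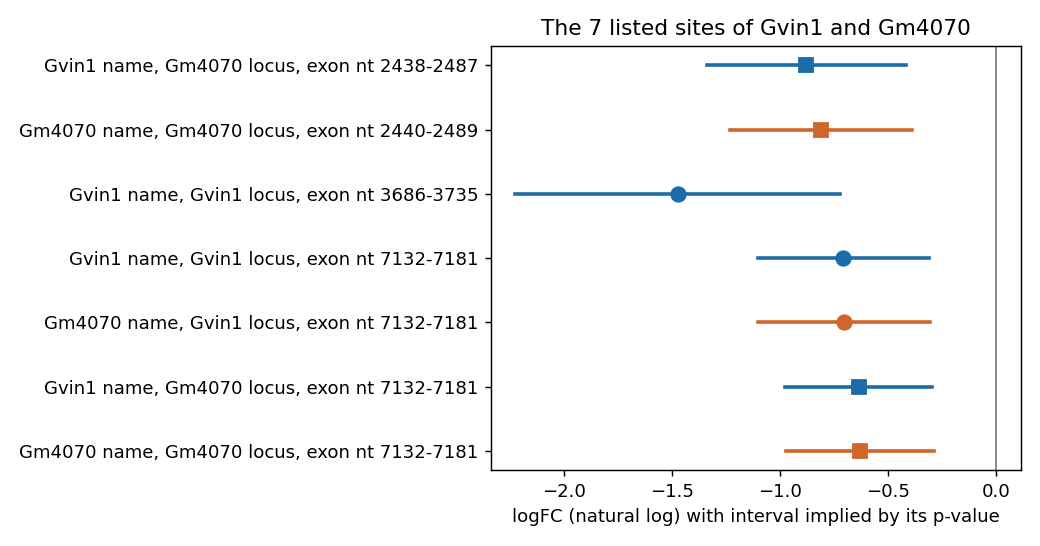
Deposited logFC (natural log) of each of the 7 rows with the 95% interval implied by its p value. Colour gives the name in the table (blue Gvin1, orange Gm4070) and shape the locus (circle Gvin1, square Gm4070). All intervals lie below 0 and overlap one another, and the rows of the last stretch, nt 7132 to 7181, lie closest together, from -0.71 to -0.63.

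Beside the rest of the table, both signs together, the sites were of modest size. By absolute logFC they ranked from 376th to 574th of 622, and by p value from 328th to 542nd. Among the 209 negative sites alone they ranked from 36th to 174th by absolute logFC. The smallest absolute logFC among all listed sites was 0.50 and the largest p value 0.000711. Whether the authors also set a threshold on logFC was not given in the sources used here. The implied standard errors of the 7 rows ran from 0.173 to 0.382, and the median over negative sites of at most 50 nt was 0.244.

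**Figure D2:**
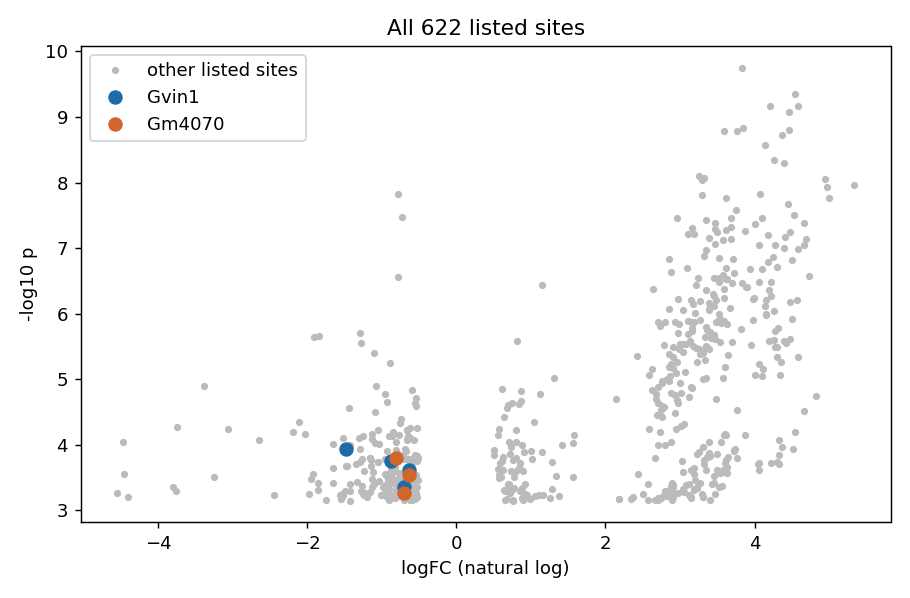
Deposited logFC (natural log) against -log10 of the deposited p value for all 622 listed sites, with Gvin1 in blue and Gm4070 in orange. The rows lie between -1.47 and -0.63, with 6 of the 7 at -0.88 or closer to 0 and the middle stretch beyond the lower quartile of negative sites, -1.25.

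The agreement of the names was closest where their coordinates were the same. At chr7:106158084-106158133 the logFC under Gvin1 was more negative than that under Gm4070 by 0.0035, which is 1.71% of the larger implied standard error. At chr7:105896667-105896716 it was more negative by 0.0045, or 2.61% of the standard error. For the pair shifted by 2 nt the difference was 0.067, or 28.5% of the standard error. Both rows of a pair rest on the same libraries, so their closeness is no replication. The standard error is that of a genotype coefficient and does not measure the error of a difference between rows.

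For the last stretch, the loci differed more than the names did at the same coordinates. The last stretch has 1 sequence at both loci, and its logFC at the Gvin1 locus was more negative than at the Gm4070 locus by 0.071 under the name Gvin1 and by 0.072 under the name Gm4070. This is 35.2% and 35.3% of the larger standard error, which does not measure the error of a difference between rows. The difference between loci was not tested. Read sequence cannot assign the counts to either locus, since no differing base lies within reach of a 50-nt read over this stretch.

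The logFC values were also compared with logs of ratios of whole numbers, a property looked for after the data were seen. Raised from the natural log, each of the 7 values equalled a ratio of 2 whole numbers to within a relative error of 1e-12, as sums of whole-number adjusted counts over the mice of each genotype would give. Of all 622 sites, 309 (49.7%) had this property with denominators of at most 5000. At a looser relative error of 1e-08, 621 (99.8%) had it, but with denominators that large many values pass whatever they count. With denominators of at most 500, 574 (92.3%) passed at 1e-08, so most listed sites share the property at that setting. The ratio is in its lowest terms, so any sums behind it would be known only up to a common factor. What the numbers count was not tested.

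In lowest terms, the middle stretch gave 48 to 11. The first gave 65 to 27 under Gvin1 and 259 to 115 under Gm4070. The last gave 290 to 143 under Gvin1 and 869 to 430 under Gm4070 at the Gvin1 locus, and 856 to 453 and 427 to 227 at the Gm4070 locus. No total can be compared between rows, because the common factor of each is unknown.

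The pair of genes is nearly a single sequence. Along the 8709 nt of the exon, 8706 bases (99.97%) were the same, and the 3 that differ are G1809T, G4908A and C7079T, with the Gvin1 base first, the position counted from the 5′ end of the exon, and the Gm4070 base last. Each of them changes the protein, as S602I, R1635K and L2359F, so the proteins match at 2424 of 2427 residues (99.9%). Of these differences, C7079T lies closest to a listed site, 53 nt before the last stretch. None falls within a listed site.

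Libraries of this study were sequenced with single-end reads of 50 nt, and at that length few positions of the exon separate the genes. Of the 8660 windows of 50 nt along the exon, 8510 (98.3%) were identical in Gvin1 and Gm4070. Of the 150 windows that span a difference, 76 occurred nowhere else on the assembled chromosomes, 0.878% of all windows. Another 4027 windows (46.5%) occurred in at least 2 further places, and the most repeated occurred in 8.

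**Figure D3:**
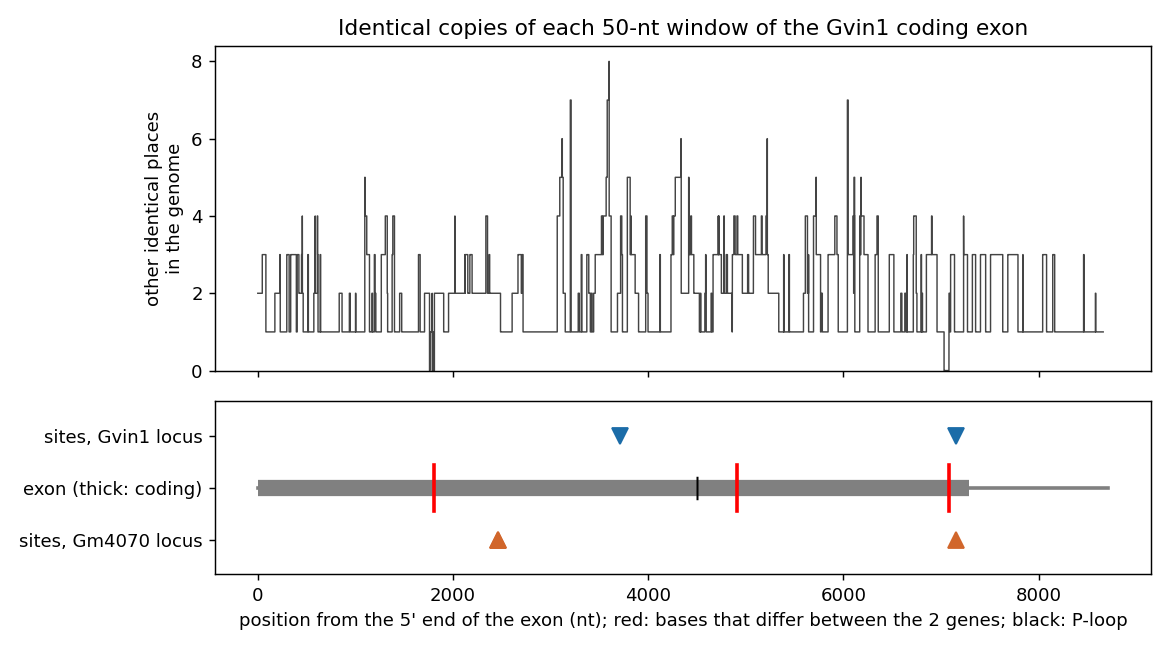
Upper panel, the number of other places in the genome with an identical copy of the 50-nt window that starts at each position of the Gvin1 coding exon. Lower panel, the exon with its coding part (thick), the 3 bases that differ from Gm4070 (red), the P-loop (black) and the listed sites at each locus (triangles), all by distance from the 5′ end in nt. The count reaches 0 only in windows that span the first or the last of the differing bases, and none of the listed sites lies in such a stretch.

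For each of the 7 rows, 100% of the 99 read positions that would overlap the site by at least 1 base had an identical copy elsewhere in the genome. Among the 572 other listed sites of 1 block, 21 (3.67%) had a copy of every read position, while 511 (89.3%) had a copy of none. The study's methods give 1 HISAT2 setting, written as -x 1, and do not say what it does to reads that align to several places, so a value at either locus may include reads from any of the copies, and how the reads divide between them was not tested.

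The copies were found throughout the gene cluster and, at 95% identity over 95% of the site, on no other chromosome. Long matches to the whole exon were sought in a window around the 2 loci and assigned to a set list of cluster genes. In that list, 10 genes other than Gvin1 hold full or partial copies of its exon over 779819 nt, chr7:105824221-106604039. Some of the 17 matching stretches lay outside the genes of that list and are not described. Gm4070 and Gvin1 were the only ones of the 11 that GENCODE M21 calls protein-coding. Gm8979 and Gm8989, both annotated as pseudogenes, hold 99.6% and 99.7% of the exon at 96.2% and 96.0% identity. Gm1966, a pseudogene in GENCODE and protein-coding in RefSeq, holds 99.9% at 92.0% identity, and its RefSeq protein of 2430 residues matches that of Gvin1 at 87.5% of aligned residues.

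Copies in the remaining named genes were shorter or more diverged. 9130208D14Rik holds 83.7% of the exon at 89.7% identity and Gm8995 holds 83.6% at 91.9%. Gm4759 holds 59.6% at 87.0%, and Gm18852 and Gm18853, which lie within the spans of Gm4070 and Gvin1, hold 41.0% each at 89.9%. Gm27149 holds 14.7% at 90.6%.

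The last stretch had 6 other copies at 95% identity over 95% of the site, 3 of them identical: the other locus of the pair, Gm8979 and Gm8989. Its single RRACH match is kept in all 6. The middle stretch had 4, of which Gm4070 and Gm8989 were identical, and both RRACH matches are kept in each. The first stretch had 5, of which Gvin1 and 9130208D14Rik were identical, and in the other 3, Gm8979, Gm8989 and Gm1966, the substitution C7T replaces the C of the first RRACH match. Of the 622 listed sites, 70 (11.3%) had another copy by this measure, these 7 rows included.

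Some copies differ from the listed site at few bases, and those of Gm1966 and Gm4759 are shown for the first and last stretches because they differ there by 1 or 2 bases, with capitals at the bases that differ. For the first stretch, with positions counted from the 5′ end of the row named Gvin1, Gm8979, Gm8989 and Gm1966 share C7T and A44C.
Gm1966, chr7:106601553-106601602, minus strand: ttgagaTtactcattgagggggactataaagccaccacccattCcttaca
For the middle stretch, not shown, Gm8979 and Gm8995 carry A31C alone, counted from the 5′ end of the site. For the last stretch, Gm8995 and Gm1966 share T10C and C12A, and Gm4759 carries G35C.
Gm1966, chr7:106596850-106596899, minus strand: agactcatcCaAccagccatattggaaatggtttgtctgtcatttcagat
Gm4759, chr7:106417955-106418004, minus strand: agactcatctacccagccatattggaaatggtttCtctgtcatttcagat

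**Figure D4:**
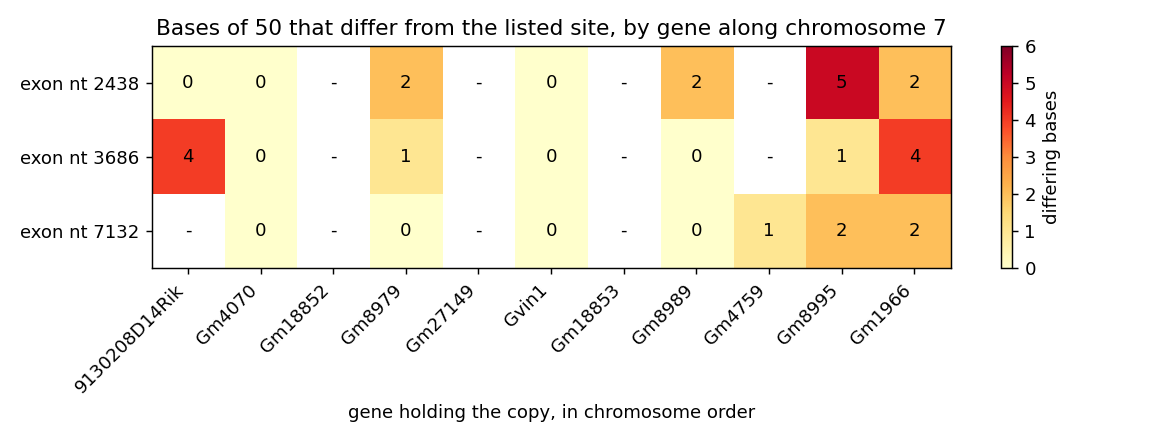
Number of the 50 bases that differ from the listed site in each named gene of the cluster, in chromosome order, for the 3 stretches by their start in the exon (nt). A dash stands for no gap-free copy over the full site at 90% identity or more. Gvin1 and Gm4070 have 0 differences at all 3 stretches, and Gm8989 has 0 at 2 of them.

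All 7 rows hold a match to RRACH, 2 matches each in the first and middle stretches and 1 in the last. Of all listed sites, 378 (60.8%) hold a match, and of the 7232 windows of 50 nt in the coding sequence of Gvin1, 4977 (68.8%). In the rows of the last stretch the match begins at the first base of the site. GGAC, searched on the transcript strand and contained in some RRACH matches, is present in 3 of the 7 rows, those of the first and middle stretches. A match is a description of the letters and does not locate a methylated base.

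Other rows of the table also share coordinates between names, but there the values were identical. Of the 614 positions in the table, 5 were listed under more than 1 name, 3 of them on chromosome 2. At chr2:175653429-175653478 the predicted genes Gm14308, Gm14430, Gm14434, Gm4724 and 0610010B08Rik each had a logFC of -0.92. Gm14431 and Gm8898 shared chr2:175384881-175384930, with -0.66 each, and chr2:176533423-176533472, with -0.65 each. The difference between names was 0 at all 3 of these positions, whereas Gvin1 and Gm4070 differed at both of theirs and their p values differed as well.

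Genes of the interferon response were listed about as often as others. Of 120 such genes in 4 lists, Gvin1 and Gm4070 apart, 3 (2.5%) had a site, 2 negative and 1 positive. Of the 21896 protein-coding genes in RefSeq, 570 (2.60%) had one. The symbols Gvin2 and Gvin3 of the lists did not match a RefSeq symbol or synonym, and no row carries these names. The lists do not show how many of these genes had enough reads to be tested, so an absent gene was not shown to be unchanged.

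Of 32 other interferon-inducible and related GTPases, Gvin2 and Gvin3 among them, 1 (3.12%) had a site. This was Gbp7, a guanylate-binding protein that acts in defence against intracellular pathogens, with a logFC of -1.43 at chr3:142547664-142547713 (implied interval -2.22 to -0.64, deposited p of 0.000394), a 4.17-fold difference between genotypes. The value is close to that of the middle stretch of Gvin1, with a similar interval. Unlike the Gvin1 sites, it had no other copy in the genome.

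Of 18 interferon receptors and signalling genes, 0 had a site. Of 15 genes of RNA and DNA sensing, Traf6, a ubiquitin ligase downstream of Toll-like receptors, had a positive logFC of 3.83, with a lower bound of 2.65 to its implied interval and a deposited p of 1.76e-10. Of 55 interferon-stimulated effectors, Rtp4, a chaperone of receptors at the cell surface that is strongly induced by interferon, had -0.86 (-1.28 to -0.43, p of 7.47e-05). The first stretch of the giant GTPases had the same sign and a similar size, -0.88 and -0.81. Such values are common, since the quartiles of all negative sites were -1.25 and -0.69. Gbp7 and Rtp4 were each set beside the stretch nearest in value, and a shared pattern was not tested.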

How the data were processed

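m6A-seq of livers from 4 wild type and 4 Mettl14 knockout mice was taken from the table of differentially methylated sites the authors deposited. By the study's methods, reads were aligned with HISAT2 to mm10, counted in bins of 50 nt along concatenated exons, and IP counts were normalised for IP efficiency and divided by a size factor from gene-level INPUT counts. RADAR fitted a Poisson random effect model with a Wald test and adjacent significant bins were merged. The authors deposited 1 coefficient per site on the natural log scale (logFC) and 1 unadjusted p-value, which are columns of their own comparison and were used because each site has no other value. They are credited to the table and were not tested again, since its values chose the sites. The RADAR version, the annotation, the FDR threshold and the reference genotype were not given in the sources used here. The methods write the HISAT2 setting as -x 1, an option that names the index, and do not say how reads with several alignments were treated. Depth per library was not analysed here, and nothing beyond the p-values measures precision.

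Coordinates were read as 1-based, since the span equalled the block size in all 579 sites of 1 block. Standard errors and 95% intervals were derived from each logFC and its p, read as a two-sided normal Wald test. Sequences came from the RefSeq copy of GRCm38 and gene models from GENCODE M21 and RefSeq. Copies were searched with BLAST+ 2.17.0 and identical reads by an exact scan of 21 chromosomes with Python 3.11.15, both strands. The scans recovered the known number of copies in 40 of 40 simulated sequences, identical and with 2 mismatches. Proteins were translated and aligned with Biopython 1.88. The named genes were Gvin1 and Gm4070 with all rows, cluster genes with a copy of a site, genes of the interferon lists with a row, and genes sharing coordinates. The members and lists were chosen with earlier results of these data known. Alternatives covered the copy threshold, read length, mismatches, motif, pairing of names, counting of rows, protein denominator and transcript.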

Additional observations from a re-analysis of the deposited data

How the results depend on the processing

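The p-values and signs are those of the deposited table and have no value per mouse behind them here, so no library could be left out. No paired analysis was possible because the table gives 1 coefficient per site for the whole comparison. The median number of other copies per position was 5 at 95% identity over 95% of the site and 6 at 90%, and it moved to 2 when only identical copies were counted. GGAC in place of RRACH moved the number of rows with a match from 7 to 3, since the last stretch holds none, while DRACH (A, G or T first) or a flank of 25 nt left it at 7. The median logFC was -0.71 over rows, -0.81 with each position counted once and -0.85 with each stretch counted once, the last chosen after the data were seen. The largest difference between names was 0.0045 at the same coordinates and 0.067 among overlapping rows. The share of copied read positions, 100%, could not be lowered by reads of 40 nt, 2 mismatches or only reads that start within the site, and the protein denominator could not matter because the proteins align in full, so these settings bear on nothing. The transcript used left all 7 rows in coding sequence. With denominators up to 500 or 20000, all 7 rows were still whole-number ratios, as were 263 and 310 of the 622 sites.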
